A study of Mus musculus with 8 samples.

Results

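The enzymes that make and remove deoxyribonucleoside triphosphates (dNTPs), the building blocks of DNA, were examined in primary hepatocytes, the parenchymal cells of the liver, of p16-/- mice and their p16+/+ littermates. The set has 9 genes, Rrm1, Rrm2, Rrm2b, Tyms, Tk1, Tk2, Dck, Dut and Samhd1, among 22180 genes with an array row of their own. A row was taken if the platform annotation gave it exactly 1 symbol, equal to that of a member, and for Rrm2 and Dut, which have a further row, the row was selected on its mean over the 8 arrays, the highest being kept. Members, lists and the comparison of Rrm2 with its S-phase partners were chosen with earlier results of these data known, so the p-values below are no independent evidence for the choice.

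Hepatocytes of both genotypes were freed by collagenase perfusion and left to adhere for 16 h with insulin (100 nM), dexamethasone (25 nM) and fetal bovine serum (10%). They then spent 8 h in medium with 1 mM glucose and 0.1% albumin before RNA was taken at 24 h. The knockout group had 4 samples and the wild type group had 4, each on 1 expression array. The sources used here give neither age nor sex nor the deleted part of the gene. The labels name biological replicates without saying whether each came from its own animal, so the spread behind every p-value is that between these samples, which may be technical.

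Ribonucleotide reductase converts ribonucleotides to deoxyribonucleotides and is the step that limits dNTP supply. Its large subunit, RRM1, holds the catalytic site, and it works with one of a pair of small subunits: RRM2, which proliferating cells make in S phase and degrade in mitosis, or RRM2B, the p53-inducible subunit that serves DNA repair and mitochondrial DNA in resting cells. Thymidylate synthase (Tyms), cytosolic thymidine kinase (Tk1) and dUTPase (Dut) supply thymidine nucleotides or keep uracil out of DNA and are, like Rrm2, known as genes of S phase and targets of E2F, the transcription factor family released when the p16-sensitive kinases CDK4 and CDK6 act. Tk2 and Dck salvage deoxynucleosides in mitochondria and cytosol outside S phase as well, and Samhd1 breaks dNTPs down. Most adult hepatocytes are out of the cell cycle and dNTP synthesis is low in them.

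The promoters of Rrm2, of its enzyme partner Rrm1 and of Dut are shown because the report turns on how differently these S-phase genes moved. RefSeq (GRCm38.p6) holds a promoter for 8 of the 9 members, from 250 bases before to 50 bases after the gene start. Those printed are Rrm2 at chr12:24708004-24708303, Rrm1 at chr7:102441445-102441744 and Dut at chr2:125247265-125247564, all on the plus strand. Capitals mark the CCAAT box (CCAAT), the site of the factor NF-Y, and the core of E2F sites, for which 4 words were accepted (TTGGCG as the leading one, then the word TTCCCG, the word TTCGCG, and finally the word TTGCCG), each searched on both strands. The matches in the printed windows do not overlap each other.
Rrm2: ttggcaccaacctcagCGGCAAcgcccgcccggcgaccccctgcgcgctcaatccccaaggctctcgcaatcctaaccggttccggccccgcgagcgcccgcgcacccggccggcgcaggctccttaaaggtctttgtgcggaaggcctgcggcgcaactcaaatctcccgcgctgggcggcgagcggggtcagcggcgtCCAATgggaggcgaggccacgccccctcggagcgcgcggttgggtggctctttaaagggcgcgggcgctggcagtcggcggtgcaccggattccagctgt
Rrm1: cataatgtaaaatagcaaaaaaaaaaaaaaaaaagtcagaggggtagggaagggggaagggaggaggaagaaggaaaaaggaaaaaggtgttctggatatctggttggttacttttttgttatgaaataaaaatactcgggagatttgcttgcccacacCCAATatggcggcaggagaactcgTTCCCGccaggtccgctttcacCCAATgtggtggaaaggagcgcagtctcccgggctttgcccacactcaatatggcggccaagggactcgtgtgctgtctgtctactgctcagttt
Dut: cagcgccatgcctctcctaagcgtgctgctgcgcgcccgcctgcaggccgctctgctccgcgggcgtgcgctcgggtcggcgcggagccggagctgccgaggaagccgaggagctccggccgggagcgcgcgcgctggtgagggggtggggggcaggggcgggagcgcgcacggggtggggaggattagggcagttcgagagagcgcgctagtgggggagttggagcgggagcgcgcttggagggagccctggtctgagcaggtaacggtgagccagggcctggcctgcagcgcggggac
The letters CCAAT stand 50 bases before the start of Rrm2 and 91 and 45 bases before that of Rrm1. Of the 8 member promoters 2 hold them, against 37.4% of all 32851 promoters. An E2F core stands 234 bases before the start of Rrm2, 67 before that of Rrm1 and 225 before that of Tk2. Thus 3 of the 8 promoters hold one, against 24.9% of all, and those of Tyms and Tk1 do not. The Dut window holds neither motif.

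The arrays of the knockout and wild type groups had similar distributions, which the RMA normalization of the deposited values largely sets, so this is no check of the arrays. The deposited row of Cdkn2a, the p16 gene, did not separate the genotypes, at 4.53 ± 0.31 in knockout and 4.53 ± 0.28 in wild type cells (log2, SD, n = 4 each). Where its probes lie relative to the deletion is not known, so the row checks nothing. Knockout replicate 4 lay apart from the other arrays on the second principal component (-25.2, where the others ran from -8.91 to 14.6). Without it Rrm2 and Dut kept their calls, with changes of 2.25 and -0.73. Of 23 tested hepatocyte markers 16 were higher and none lower in the knockout, with list means of 9.87 to 10.02 in knockout and 9.06 to 9.29 in wild type arrays. The brightest of them, Alb, Ttr and Apoa2, did not pass, with changes of 0.03, 0.19 and 0.17. Of 18 sinusoidal endothelial markers 17 were lower, among them Cdh5, Lyve1 and Pecam1, with list means of 4.56 to 4.74 in knockout and 5.66 to 5.79 in wild type arrays. Of 18 macrophage markers 13 were lower and 1, Cd68, was higher, with list means of 4.63 to 4.68 in knockout and 5.33 to 5.47 in wild type arrays. Of 15 stellate cell markers 5 were lower and 1, Reln, was higher, with list means of 4.47 to 4.58 in knockout and 4.93 to 5.04 in wild type arrays. None of 4 cholangiocyte, 6 lymphocyte or 2 neutrophil markers tested passed. In such bulk RNA, fewer cells of a type and less RNA per cell cannot be told apart.

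Within the set, 1 gene rose and 1 fell, 7 missed the threshold, and all 9 lay above the filter on dim genes (limma over 15380 genes, Benjamini-Hochberg adjusted p under 0.05). Over all genes tested 13.8% were called, 7.02% higher and 6.76% lower in the knockout. The median change of the 9 was -0.07 on the log2 scale, beside -0.02 over all genes tested. Rrm2 was the gene that rose and Dut the gene that fell.

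Rrm2, the S-phase small subunit, was measured at 7.44, 7.26, 7.33 and 6.94 (log2) in the 4 knockout cultures, against 4.75, 5.14, 5.22 and 5.25 in the 4 wild type cultures. The groups lay far apart, with the lowest knockout array well above the highest wild type array. Its level was 7.24 ± 0.22 in knockout and 5.09 ± 0.23 in wild type hepatocytes (SD, n = 4 each), a rise of 2.15 (SE 0.14), or 4.44-fold (adjusted p = 5.01e-06). Only 14 of the 15380 genes tested had a larger rise. The hepatocyte list mean was higher by 0.76 on the same arrays, and its part in the rise of Rrm2 was not tested.

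A second, dim row of Rrm2 had values of 3.00, 2.95, 2.85 and 2.57 in knockout and 2.57, 2.83, 2.28 and 2.56 in wild type arrays, all below the filter value of 3.32 and overlapping between the groups. Averaged over both rows the rise was 1.22 (adjusted p = 5.29e-05), which is less than the kept row alone gave. The sources used here do not say which transcripts each row measures.

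**Figure D1:**
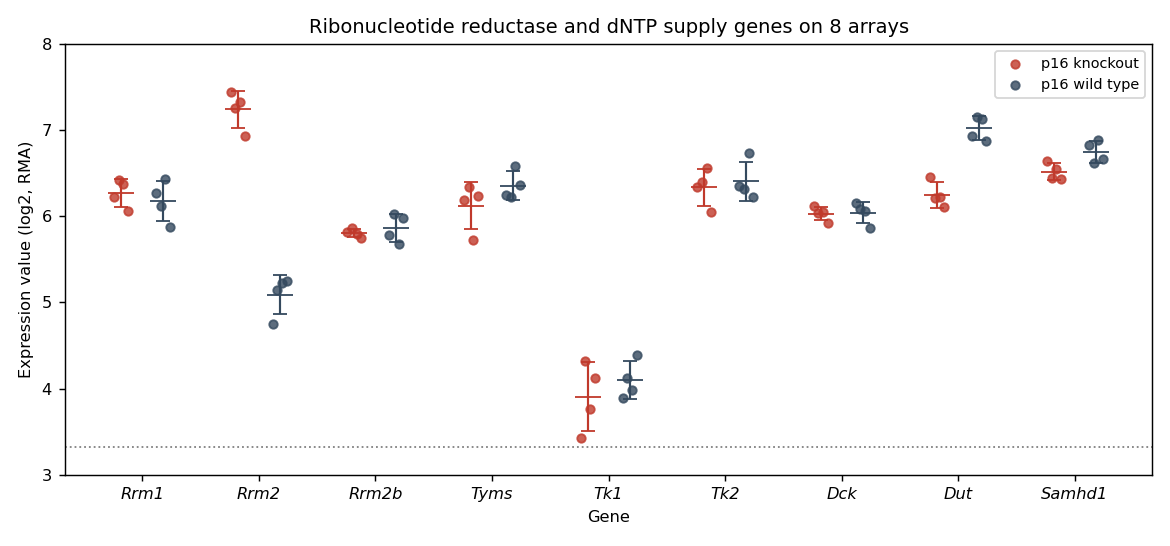
Expression values (log2, RMA) of the 9 genes on each array, p16 knockout in red to the left of p16 wild type in dark blue, with mean and SD bars of 4 arrays per group; the dotted line is the filter value of 3.32. Rrm2 lies at 6.94 to 7.44 in the knockout and 4.75 to 5.25 in the wild type, Dut lies lower in the knockout, and the groups of the other genes overlap.

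Rrm1, the large subunit that RRM2 needs for activity, had values of 6.22, 6.43, 6.38 and 6.06 in knockout arrays, against 6.27, 6.12, 6.44 and 5.88 in wild type arrays. The groups overlapped throughout, and the change was 0.09 with a 95% interval of -0.19 to 0.38 (adjusted p = 0.714). Rrm2b, the alternative small subunit, ranged from 5.75 to 5.86 in knockout and from 5.68 to 6.02 in wild type arrays, so that the knockout values lay inside the wild type range. Its change was -0.06 (95% interval -0.28 to 0.15, adjusted p = 0.751). Of the 3 subunit genes, Rrm2 alone passed the test, and its change exceeded that of Rrm1 by 2.06 and that of Rrm2b by 2.21 on the log2 scale.

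Among the enzymes of thymidine nucleotides, Dut, whose product hydrolyses dUTP, fell. It had values of 6.46, 6.21, 6.22 and 6.10 in knockout arrays, against 6.94, 7.15, 7.13 and 6.87 in wild type arrays. Every knockout value lay below every wild type value. The level was 6.25 ± 0.15 in knockout and 7.02 ± 0.14 in wild type cells (SD, n = 4 each), and it fell by 0.77 (SE 0.11, adjusted p = 6.78e-04), 1.71-fold lower. A second row of Dut, with 2.17 ± 0.21 in knockout and 2.22 ± 0.18 in wild type arrays, lay below the filter value, and averaged over both rows the change was -0.42 (adjusted p = 0.0260). The 2 genes that passed, Rrm2 and Dut, were also the only members whose groups did not overlap, which 20.2% of all genes tested showed. On these arrays the endothelial and macrophage list means were lower by 1.07 and 0.73, and their part in the fall of Dut was not tested.

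Tyms, which makes thymidylate from deoxyuridylate, was at 6.19, 6.34, 5.73 and 6.24 in knockout arrays, against 6.25, 6.22, 6.59 and 6.36 in wild type arrays. Knockout replicate 3 was the lowest and the other knockout arrays lay among or just below the wild type ones. The change was -0.23 (95% interval -0.54 to 0.08, adjusted p = 0.332). Tk1, the S-phase thymidine kinase and the dimmest member, had values of 3.42, 4.32, 3.76 and 4.12 in knockout arrays, against 3.89, 4.12, 3.98 and 4.39 in wild type arrays. It had the widest spread of the set in the knockout, at 3.91 ± 0.40 against 4.10 ± 0.22 in the wild type, and a change of -0.19 (95% interval -0.59 to 0.22, adjusted p = 0.576).

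The other members are less tied to S phase. Tk2, the mitochondrial thymidine kinase, ranged from 6.05 to 6.56 in knockout and from 6.22 to 6.74 in wild type arrays, with a change of -0.07 (95% interval -0.37 to 0.23). Dck, which phosphorylates deoxycytidine and the purine deoxynucleosides, ranged from 5.93 to 6.12 in knockout and from 5.87 to 6.15 in wild type arrays, with a change of -0.01 (95% interval -0.21 to 0.19). Rrm1, Tk2 and Dck had their lowest value in replicate 4 of each group. Samhd1, the dNTP hydrolase that is abundant in macrophages, had values of 6.64, 6.45, 6.55 and 6.44 in knockout arrays, against 6.83, 6.62, 6.88 and 6.67 in wild type arrays. Only knockout replicate 1 reached into the wild type range. The change was -0.23 (SE 0.10, unadjusted p = 0.0335), and with an adjusted p of 0.145 it did not pass. The macrophage list mean was lower by 0.73 on the same arrays, and its part in the Samhd1 value was not tested.

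**Figure D2:**
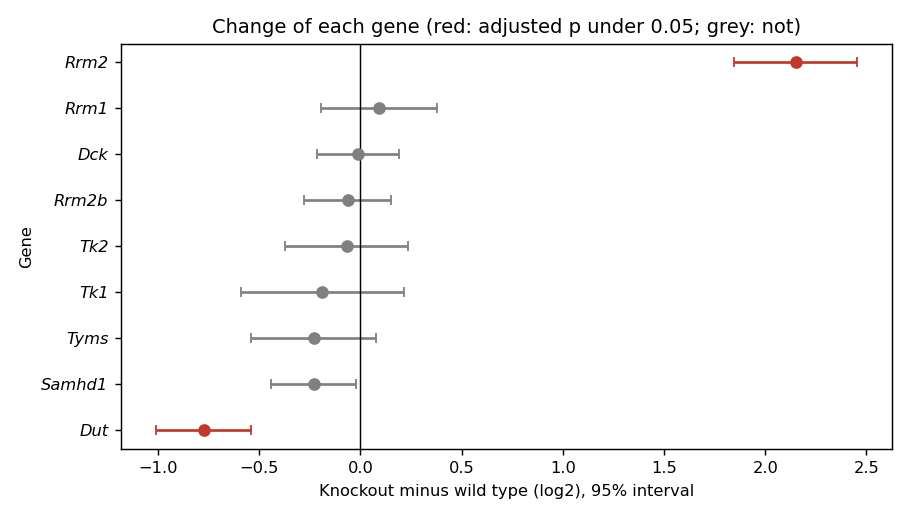
Change of each gene, knockout minus wild type (log2), as points with 95% intervals from the fit over all genes, red where the adjusted p was under 0.05 and grey otherwise. Rrm2 at 2.15 and Dut at -0.77 stand apart from the other 7 genes, which run from -0.23 to 0.09.

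Rrm2 and its S-phase partners were then set side by side array by array, each gene taken as the deviation from its own wild type mean. This comparison was picked for its difference, so it is a description without a test. Rrm2 deviated by 2.35, 2.17, 2.24 and 1.84 in the 4 knockout arrays, while the mean of Rrm1, Tyms, Tk1 and Dut deviated by -0.34, -0.09, -0.39 and -0.28. In each knockout array Rrm2 lay above its wild type mean and the partner mean lay below its own, although Rrm1 by itself lay above its wild type mean in knockout replicates 1, 2 and 3 and Tk1 in knockout replicates 2 and 4. The partner mean changed by -0.28, with -0.77 for Dut, the only partner called. Tyms, Tk1 and Rrm1 changed by -0.23, -0.19 and 0.09, and a partner mean without Dut was not taken. Rrm2 minus partners was 2.43 ± 0.28 in knockout arrays and ran from -0.26 to 0.20 in wild type arrays. The gap was smallest for Rrm1 (2.06) and largest for Dut (2.93), with 2.34 for Tk1 and 2.38 for Tyms. The part of the lower endothelial and macrophage list means in the Dut value, and so in the gap, was not tested. Nor was the part of the hepatocyte list mean, higher by 0.76, in the Rrm2 value. With rows averaged per gene the gap to the partner mean was 1.40, and without each array in turn it was 2.34 to 2.52.

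**Figure D3:**
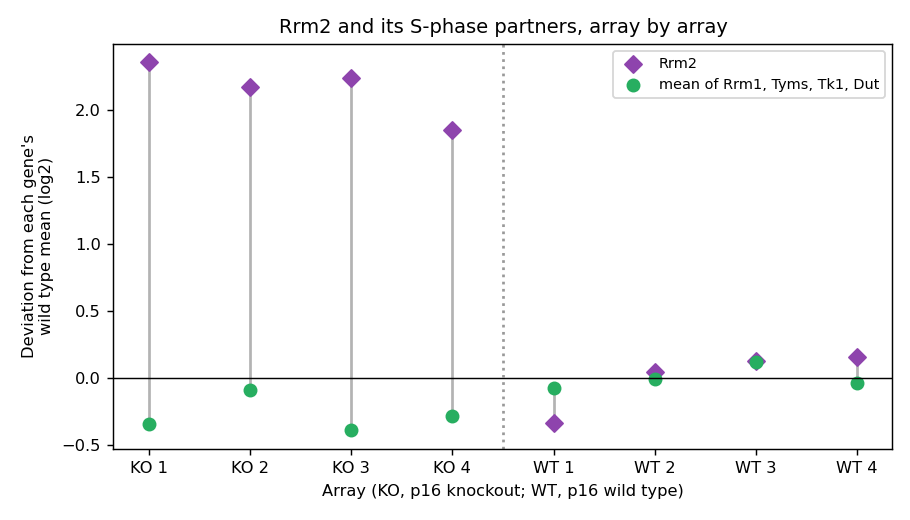
Deviation of Rrm2 (diamonds) and of the mean of Rrm1, Tyms, Tk1 and Dut (circles) from each gene's wild type mean (log2) on each array, knockout arrays left of wild type arrays. Rrm2 stands 2.13 to 2.69 above its partners on the knockout arrays. On the wild type arrays the symbols centre on 0 by construction, with Rrm2 at -0.34 in wild type replicate 1.

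Of 47 tested genes on the S-phase and replication list 10 fell, 36 missed the threshold and 1 rose, which is 21.3% lower where all genes gave 6.76%. The list median was -0.26, and 37 of the 47 changes were below 0. Mcm4, a subunit of the helicase that opens replication origins, fell to 6.04, 6.01, 6.20 and 6.14 in knockout arrays, against 7.31, 6.80, 7.46 and 6.93 in wild type arrays, a change of -1.03 (SE 0.14, adjusted p = 6.75e-04). Its fellow subunits Mcm2 and Mcm3 fell by 0.92 (SE 0.12) and 0.83 (SE 0.10), and Pole, the catalytic subunit of DNA polymerase epsilon, fell by 0.59 (SE 0.13). The other helicase subunits were looked up afterwards. Mcm5 and Mcm7 changed by -0.46 and -0.49, with calls lost under 5 and 8 of the 19 alternatives. Mcm6 went the other way, by 0.27, and did not pass (adjusted p = 0.0736). The 1 called rise was that of the chromatin assembly gene Chaf1b (0.68, SE 0.17), which was picked out afterwards by its value, so Rrm2 rose more than any tested gene of this list. The call of Chaf1b was lost without knockout replicate 1, knockout replicate 2 or wild type replicate 2 (adjusted p of 0.0521 to 0.0542). Ccna2, Top2a and Mki67, which mark cells in S phase to mitosis, lay below the filter. Mki67 was at 3.21 ± 0.16 in knockout and 3.13 ± 0.21 in wild type arrays. Top2a was at 2.66 ± 0.20 in knockout and 2.30 ± 0.17 in wild type arrays, and Ccna2 at 2.88 ± 0.07 and 2.86 ± 0.14. The count of falls was 4 without knockout replicate 2 or wild type replicate 1, 5 without wild type replicate 3 and 5 with no filter on dim genes. The endothelial and macrophage list means were lower by 1.07 and 0.73 on these arrays, and their part in these falls was not tested.

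**Figure D4:**
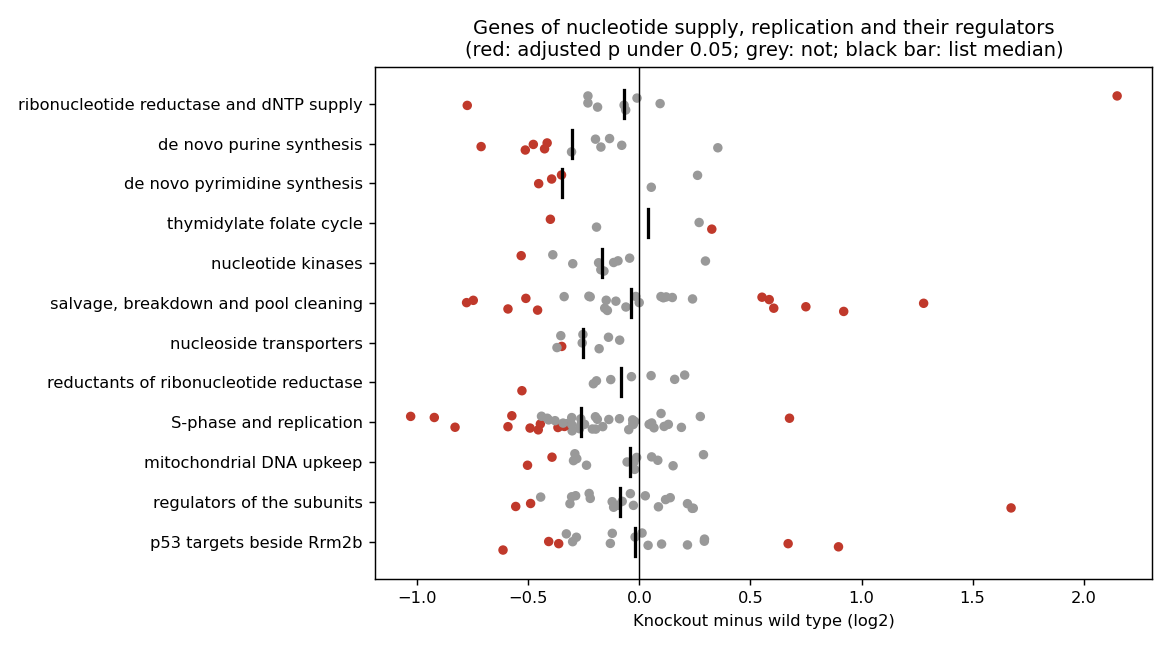
Knockout minus wild type change (log2) of each tested gene in the set and in 11 lists of nucleotide supply, replication and regulators, with black bars at the list medians; red points had an adjusted p under 0.05. Rrm2 at 2.15 and the regulator E2f8 at 1.67 lie farthest to the right, while the called genes of purine and pyrimidine synthesis all lie left of 0.

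The routes that feed ribonucleotide reductase were lower in part. Of 11 tested genes of de novo purine synthesis 5 fell and none rose (median -0.31), against 6.76% lower over all genes. Gart, which carries several early steps of the route, fell to 7.65 ± 0.18 in knockout cells, against 8.36 ± 0.17 in wild type cells, by 0.71 (SE 0.12, adjusted p = 0.00219). With rows averaged per gene Gart did not pass (adjusted p = 0.0699), and 4 purine genes were lower. Atic (-0.48, SE 0.09) and Adss (-0.43, SE 0.09), which act at and after the last common step, and Impdh1 (-0.51, SE 0.12), the entry to guanine nucleotides, fell as well. Of 5 genes of de novo pyrimidine synthesis 3 fell, namely Umps (-0.45, SE 0.09), Ctps (-0.35, SE 0.08) and Cad (-0.39, SE 0.11), which starts the route. Without wild type replicate 1 a single pyrimidine gene passed, and the call of Cad was lost without knockout replicate 2, without any 1 of the wild type arrays and with no filter on dim genes. On the same arrays the hepatocyte list mean was higher by 0.76 and the endothelial one lower by 1.07, whose part was not tested.

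Around the thymidylate step, 1 of 4 tested folate genes fell and 1 rose. Shmt1, the cytosolic serine hydroxymethyltransferase that supplies one-carbon units, fell by 0.40 (SE 0.10), and Mthfd2, a mitochondrial folate dehydrogenase, rose by 0.33 (SE 0.08). Among 10 nucleotide kinases 1 fell, Nme1 (-0.53, SE 0.09), which makes triphosphates from diphosphates. Of 8 genes of the thioredoxin and glutaredoxin systems, which include reductants of ribonucleotide reductase, 1 fell, the thioredoxin reductase gene Txnrd1 (-0.53, SE 0.09). Of 8 nucleoside transporters 1 fell, Slc29a1 (-0.35, SE 0.10). These 4 lists had medians of 0.04, -0.17, -0.08 and -0.26, beside -0.02 over all genes, of which 7.02% were higher and 6.76% lower. Nme1 and Txnrd1 kept their calls under all 19 alternatives. The call of Shmt1 was lost without knockout replicate 2 or wild type replicate 1, 2 or 3. That of Mthfd2 was lost without replicate 1 or 3 of either group and with no filter. Slc29a1 lost its call without any 1 of the arrays other than wild type replicate 4, with no filter and with rows averaged per gene (adjusted p of 0.367 at the highest).

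Genes of salvage and breakdown moved both ways, with 6 rises, 5 falls and 15 not passing among 26 tested (median -0.04). These were 23.1% higher and 19.2% lower, where all genes gave 7.02% and 6.76%. Dpyd, the first and rate-limiting enzyme of pyrimidine breakdown, reached 8.38, 8.30, 8.38 and 8.25 in knockout arrays, against 6.97, 7.04, 7.21 and 6.98 in wild type arrays, a rise of 1.28 (SE 0.09) or 2.43-fold (adjusted p = 6.20e-06). The groups were well separated. Upb1, the last enzyme of the same route, rose by 0.92 (SE 0.11) and the adenosine kinase gene Adk by 0.60 (SE 0.09). Nt5e, the cell surface nucleotidase, fell by 0.78 (SE 0.10). The hepatocyte list mean was higher by 0.76 on these arrays, and its part in these rises was not tested.

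Of 14 tested genes of mitochondrial DNA upkeep, the other consumer of dNTPs, 2 fell and none rose (median -0.04), which is 14.3% lower where all genes gave 6.76%. They were the single-strand binding protein gene Ssbp1 (-0.39, SE 0.09) and the helicase gene Twnk (-0.50, SE 0.11). With rows averaged per gene Ssbp1 did not pass (adjusted p = 0.181).

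Among 22 tested regulators of the subunits 19 missed the threshold, 2 fell and 1 rose (median -0.09). At 9.09% lower and 4.55% higher this list lay near the shares over all genes, 6.76% and 7.02%. E2f8, an atypical E2F that represses E2F targets, was at 6.53, 6.08, 6.47 and 5.67 in knockout arrays, against 4.30, 4.49, 4.52 and 4.74 in wild type arrays. Its groups did not overlap, although knockout replicate 4 was lower than its fellows, and it rose by 1.67 (SE 0.18) or 3.19-fold (adjusted p = 1.10e-04). Rbl1, which encodes the pocket protein p107, fell by 0.49 (SE 0.12), and the damage kinase gene Atm fell by 0.56 (SE 0.16). E2f8 kept its call under all 19 alternatives. The hepatocyte list mean was higher by 0.76 on the same arrays, and its part in the rise of E2f8 was not tested. Rbl1 lost its call without knockout replicate 3 or wild type replicate 1 or 3, and Atm lost its call with no filter and without 6 of the 8 arrays, the exceptions being knockout replicate 3 and wild type replicate 2. Of 17 tested targets of p53, the regulator of Rrm2b, 2 rose and 3 fell (median -0.02), with rises of Sesn1 (0.90, SE 0.17) and Btg2 (0.67, SE 0.11) and falls of Eda2r (-0.41, SE 0.10), Plk2 (-0.61, SE 0.15) and Phlda3, which was picked out afterwards by its value. This was 11.8% higher and 17.6% lower. Btg2 kept its call under all 19 alternatives and Sesn1 under all but the 60th percentile filter, which leaves it out as dim, whereas Eda2r, Plk2 and Phlda3 lost theirs without knockout replicate 2 or wild type replicate 1, and each of them without 1 to 3 further arrays.

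The genes whose profile over the 8 arrays was most like that of Rrm2 were sought by the root mean square difference between centred log2 profiles. Predicted genes, clones and small RNAs were left out, so the places below are among the remaining tested genes. Nearest was Orm3, an orosomucoid gene, at 0.07, followed by Rgs2, a regulator of G-protein signalling, at 0.16. Gnmt, the glycine methyltransferase of the liver, followed at 0.17, Hgd of tyrosine breakdown at 0.18 and Acmsd of tryptophan breakdown at 0.19. Of the other members Rrm1 was nearest, at 1.06 and in place 4048 by distance, and Dut was farthest, at 1.47 and in place 13636. The nearest genes of Dut itself were Acer2 (0.09), the endothelial marker Stab1 (0.10), Ddit3 (0.10), Antxr2 (0.10) and Avpi1 (0.11), and Samhd1 was the member nearest to it (0.30). A profile distance over 8 arrays in 2 groups is set largely by the difference between the groups, and is given as a description.

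**Figure D5:**
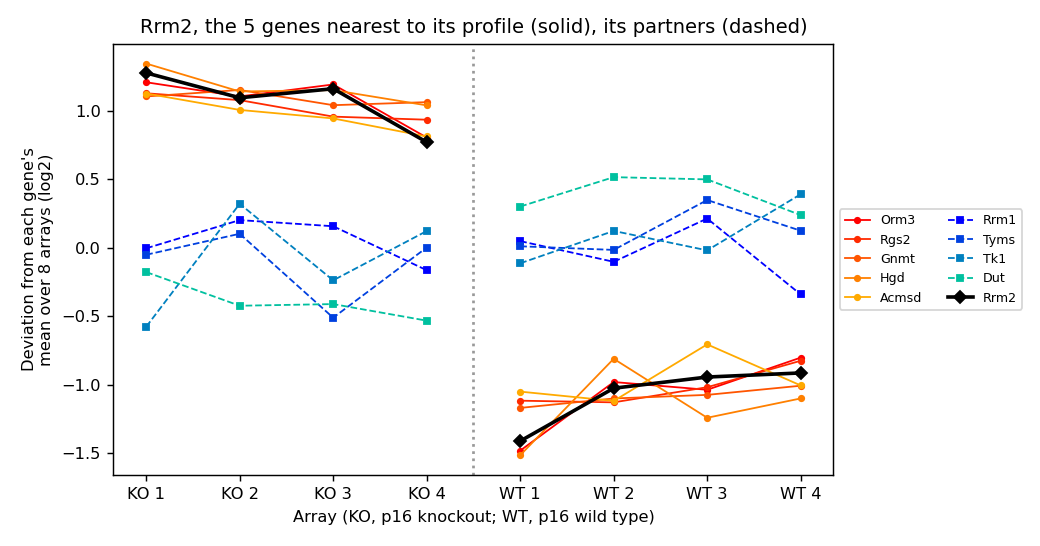
Deviation of Rrm2 (black), of the 5 genes nearest to its profile (solid, warm colours) and of its S-phase partners (dashed, cold colours) from each gene's mean over the 8 arrays (log2), knockout arrays left of wild type arrays; lines join arrays of 1 group for legibility only. The nearest genes follow Rrm2 at distances of 0.07 to 0.19. Dut lies on the opposite side in both groups, while Rrm1, Tyms and Tk1 scatter to both sides of 0 within each group.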

How the data were processed

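Total RNA of 4 p16 knockout and 4 p16 wild type hepatocyte cultures was biotin-labelled and hybridised to gene expression arrays, 1 per culture. The deposited table holds log2 values that the authors made with RMA through the oligo package, per the submitters' processing notes. No version is stated there. RMA gives all arrays a common distribution of probe intensities before the rows are summarised. It removes any shift common to the whole transcriptome and compresses differences of dim rows. Of 41345 rows 23521 had 1 gene symbol, 1814 several and 16010 none in the platform annotation, and 23328 of the named rows matched RefSeq by gene identifier. Per gene the row with the highest mean was kept, and genes with a mean over 3.32, the 40th percentile across all rows, were tested. The fit of knockout against wild type used limma 3.58.1 (R 4.3.3) (degrees of freedom 6 residual, 5.05 prior) and adjusted by Benjamini-Hochberg across the 15380 genes; p-values are two-sided, changes are knockout minus wild type, and errors of changes are moderated standard errors. Lists are described by counts and medians, without a set test. Arrays have no read depth, and 4 arrays per group limit the precision; medians of the arrays ran from 3.76 to 3.88.

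The members, gene lists and comparisons were chosen with earlier results of these data known. The search for genes nearest in profile left out predicted genes, clones and small RNAs. Besides the 9 members, the named genes are up to 4 called genes of smallest p per list, the 3 markers of highest mean per cell type and the 5 genes nearest in profile to Rrm2 and Dut. Outside that rule, and with values already seen, the text also names Cdkn2a as the targeted gene, Chaf1b and Phlda3, the helicase genes Mcm5, Mcm6 and Mcm7, the dim cycle genes Ccna2, Top2a and Mki67, and Klf11, Kidins220, Id2 and Sema6d as chromosome neighbours. The fit was tested on simulated data. Alternatives were other filters, row rules, normalizations, weights for arrays, variance models, a block for the replicate number, and leaving out each array. Sequences and motif counts were read with Python 3.11.15.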

Additional observations from a re-analysis of the deposited data

How the results depend on the processing

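Rrm2 was called higher and Dut lower, and no other member was called, under all 19 alternatives. Tk1 was not tested under the 60th percentile filter, which leaves it out as dim, so the partner mean there rests on 3 genes. Their changes ran from 1.22 to 2.25 and from -0.84 to -0.42, the smallest sizes with rows averaged per gene. The uncalled changes of Rrm1, Tk2 and Dck, all near 0, took the other sign under some of them. The gap between Rrm2 and the mean of its S-phase partners was 1.40 with rows averaged per gene, which averages in a row below the filter value, and 2.34 to 2.52 without each array in turn. The number of S-phase and replication genes called lower was 5 with no filter on dim genes and 4 to 11 without 1 array, against 10; the number called higher was 2 with the 60th percentile filter, cyclic loess or an intensity trend and 0 to 1 without 1 array. Without 1 array, 1 to 3 genes of pyrimidine synthesis were lower, 28 to 41 genes of the nucleotide and replication lists together were called, against 45, and 654 to 992 of all genes were lower, against 1039; the lowest of these each came without wild type replicate 1. Same-numbered arrays had correlations of 0.02 to 0.26 between their deviations from the group means, and differently numbered arrays -0.29 to 0.15. The labels do not say whether the replicate numbers pair the samples, and these correlations do not settle it. With the replicate number as a block 2215 genes were called, against 2119, and Rrm2 (adjusted p = 1.68e-04) and Dut (adjusted p = 0.00275) kept their calls. The table gives no background level, so how far the dim second rows of Rrm2 and Dut stand above background was not measured.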

Other observations

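The neighbours of Rrm2 and Dut along the chromosome, in the gene order of RefSeq GRCm38.p6, were read after the values of both genes had been seen. On chromosome 12, Klf11 before Rrm2 had a change of 0.33 (SE 0.11, adjusted p = 0.0717), while Kidins220 and Id2 after it rose by 0.35 (SE 0.10, adjusted p = 0.0420) and 0.56 (SE 0.13, adjusted p = 0.0161). Among the 4 tested genes on either side the changes ran from -0.15 to 0.56, below the 2.15 of Rrm2. On chromosome 2, Sema6d before Dut fell by 0.91 (SE 0.16, adjusted p = 0.00278), and the other 7 of the 8 nearest tested genes did not pass, with changes of -0.18 to 0.12.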
